A study of Mus musculus with 4 samples.

Results

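Small nucleolar RNA genes were taken as the rows whose gene symbol begins with Snord or Snora followed by a digit. The rule gave 113 rows with 110 symbols, of 46406 rows in all: 73 Snord rows, the box C/D class, and 40 Snora rows, the H/ACA class. Chromatin accessibility was measured by ATAC-seq, in which the Tn5 transposase cuts and tags open DNA, in J1 mouse embryonic stem cells grown without feeder cells. There were 2 libraries labelled wild type, called control 1 and control 2, and 2 libraries of cells overexpressing Zscan4, called Zscan4 OE 1 and Zscan4 OE 2. All 4 came from the passage labelled PN+8. The construct that drives Zscan4 is not named in the labels. Nor do they tell whether the 2 libraries per group stem from different cultures, so a p-value here measures only the spread between libraries, which may be technical. The rule picked no row named Snord115 or Snord116, the repeated genes of the imprinted Snrpn region, so these genes were not analysed here.

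Small nucleolar RNAs are short non-coding RNAs that guide the chemical modification of ribosomal RNA in the nucleolus. Box C/D RNAs bind fibrillarin and direct ribose methylation, and H/ACA RNAs bind dyskerin and direct pseudouridylation. A few members, such as Snord118 (U8), Snord14 (U14), Snord13 (U13) and Snora73 (U17), serve in the cutting or acetylation of the ribosomal RNA precursor. Most mammalian members lie in introns of host genes, often genes for ribosomal proteins or long non-coding RNAs, and are released from the spliced intron. Snord118 and Snord13 have promoters of their own. A value here is the accessibility of the DNA over the gene and not the amount of RNA.

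Of the 113 rows, 106 had a RefSeq entry (GRCm38.p6), and 103 of these lay inside the span of another RefSeq gene. Ribosomal protein genes held 29 rows, and Snhg genes or Gas5 held 19. The start of another gene was at most 500 bp away for 7 rows and between 500 and 2000 bp away for 29. The promoters below belong to host genes of rows with the most reads that lay within 2000 bp of the nearest listed start, and they show the regulatory DNA beside those rows. Each window runs from 250 bases before the host's start to 50 after it, on the host's strand, from RefSeq. The start used is the host's listed start nearest to the row. Rabggtb also has a listed start upstream of the printed one, 777 bp from Snord45c, and the window of that start is not shown. Capitals mark the letters CCGGAAG or GGGCGG on either strand, which do not overlap here.
Snhg12 (chr4:132308428-132308727, plus strand): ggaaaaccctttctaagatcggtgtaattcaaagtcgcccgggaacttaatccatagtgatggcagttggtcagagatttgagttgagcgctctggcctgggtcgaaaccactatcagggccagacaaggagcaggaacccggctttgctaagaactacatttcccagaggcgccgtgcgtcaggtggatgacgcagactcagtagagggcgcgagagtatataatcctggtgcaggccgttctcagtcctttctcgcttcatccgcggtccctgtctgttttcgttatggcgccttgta
Snhg7 (chr2:26640195-26640494, minus strand): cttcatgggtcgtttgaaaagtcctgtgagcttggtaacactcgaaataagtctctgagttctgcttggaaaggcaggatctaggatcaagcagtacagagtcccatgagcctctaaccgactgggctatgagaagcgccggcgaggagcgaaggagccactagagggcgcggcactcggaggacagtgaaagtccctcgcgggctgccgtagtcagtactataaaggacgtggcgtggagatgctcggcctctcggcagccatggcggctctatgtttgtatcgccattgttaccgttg
Snhg3 (chr4:132353637-132353936, minus strand): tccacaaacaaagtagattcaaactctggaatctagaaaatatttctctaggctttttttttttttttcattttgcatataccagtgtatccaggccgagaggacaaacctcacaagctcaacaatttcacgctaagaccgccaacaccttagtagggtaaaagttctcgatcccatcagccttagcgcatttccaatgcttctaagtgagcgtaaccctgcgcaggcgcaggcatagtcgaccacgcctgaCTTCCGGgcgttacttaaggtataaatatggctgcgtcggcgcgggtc
Gm36220 (chr11:106500665-106500964, plus strand): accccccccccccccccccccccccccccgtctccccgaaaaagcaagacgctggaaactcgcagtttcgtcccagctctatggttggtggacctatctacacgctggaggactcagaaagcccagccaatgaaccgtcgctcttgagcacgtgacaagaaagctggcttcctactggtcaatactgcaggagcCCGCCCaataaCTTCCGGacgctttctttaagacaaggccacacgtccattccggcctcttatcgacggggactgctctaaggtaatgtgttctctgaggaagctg
Rabggtb (chr3:153910918-153911217, minus strand): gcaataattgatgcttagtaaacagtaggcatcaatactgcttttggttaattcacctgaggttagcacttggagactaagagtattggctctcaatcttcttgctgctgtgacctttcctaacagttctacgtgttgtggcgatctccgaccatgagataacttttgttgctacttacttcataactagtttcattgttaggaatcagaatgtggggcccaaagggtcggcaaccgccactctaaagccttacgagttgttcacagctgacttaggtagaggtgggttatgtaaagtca
In Snhg12 an unbroken run of pyrimidines, counted from its first C as cctttctc, begins 2 bases before the annotated start. In Snhg7 and Gm36220 the runs cctctc and cctctt begin 1 base before it. Such a run at the start is known from genes of the translation machinery. Among 54 host windows, 26 (48.1%) had a run of at least 6 pyrimidines that opens with C within 20 bases of the start, against 29.4% of all 32851 windows. GGGCGG was in 38 host windows (70.4%), against 35.7% of all, and CCGGAAG in 12 (22.2%), against 8.86%. These are matches of letters only. The windows of Snhg12, Snhg7 and Rabggtb held neither motif, and those of Rabggtb and Snhg3 held no such pyrimidine run. For Rabggtb this covers the printed window only, not that of its upstream start.

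The recovered library totals were 1061428 for control 1, 2903602 for control 2, 3605774 for Zscan4 OE 1 and 4899494 for Zscan4 OE 2. Every RPM and RPKM value rests on their assignment to the libraries, which the sources do not state. Reads on the table's rows made up 12.4%, 9.38%, 12.8% and 9.93% of these totals, so the libraries numbered 1 stood above those numbered 2 in both groups. A count of 0 allows up to 3 reads, which is 2.83, 1.03, 0.832 and 0.612 reads per 1000000 reads of the total (RPM) in the same order. No molecular identifiers are described, so this limit and the intervals below cover counting error only. Of the fixed markers, all 10 stem cell genes had reads (52.8, 35.8, 70.4 and 46.1 RPM summed), and so had all 8 fibroblast genes (68.8, 53.0, 80.1 and 52.3 RPM) and all 5 neuron genes (33.9, 24.1, 29.4 and 26.9 RPM). Exon accessibility therefore did not separate these cell types by presence or absence, and the labelled cell type could not be checked with it.

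The small nucleolar RNA rows were covered thinly. They held 690 reads in the 4 libraries together. Of the 113 rows, 10 had no read in any library, 61 had 1 to 5 reads, 18 had at least 10 and 3 had at least 20. The rows at 0 were all box C/D: Snord50b, Snord53, Snord59a, Snord70, Snord71, Snord90, Snord92, Snord93, Snord111 and Snord123. Only 12 rows, 8 box C/D and 4 H/ACA, had a read in every library. At least 1 read was found in 39 rows in control 1, 48 in control 2, 80 in Zscan4 OE 1 and 78 in Zscan4 OE 2. The controls were also the shallower libraries, and the part of depth in these counts was not tested.

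Per length, small nucleolar RNA rows stood above the table as a whole. Pooled over the libraries they had 5.14 reads per kb and per 1000000 reads (RPKM), against 2.30 for 994 microRNA rows and 0.925 for all rows. Box C/D rows had 7.16 RPKM and H/ACA rows 3.25. The gap between the classes was far smaller per row. Box C/D rows are shorter, with a median length of 77 bp against 133 bp, and they held 6.36 reads per row against 5.65 for H/ACA rows, with medians of 4 and 4.5. Snord118 alone held 23.7% of box C/D reads, and without it the box C/D mean was 4.92 reads per row, below that of H/ACA rows. Counting any read that touches a feature raises the per-kb value of short features. The sources used here give neither the overlap rule nor the read length, and their part in these levels was not tested.

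In both classes the Zscan4 OE mean was above the control mean, but the libraries of the groups overlapped. Box C/D rows of control 1 summed to 39.6 RPM from 42 reads (95% exact Poisson interval 28.5 to 53.5), and those of control 2 to 18.9 from 55 reads (14.3 to 24.7). The sum was 61.6 RPM from 222 reads for Zscan4 OE 1 (53.7 to 70.2) and 29.6 from 145 reads for Zscan4 OE 2 (25 to 34.8). Control 1 thus lay above Zscan4 OE 2. The means were 29.3 ± 14.6 and 45.6 ± 22.6 RPM (SD, n = 2), a ratio of 1.56, which was within the spread between libraries (exact two-sided permutation p = 0.667, where 2 against 2 cannot go below 0.33).

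H/ACA rows followed the same order of libraries. Control 1 had 22.6 RPM from 24 reads (14.5 to 33.6) and control 2 had 10.7 from 31 reads (7.25 to 15.2). Zscan4 OE 1 had 29.1 RPM from 105 reads (23.8 to 35.3) and Zscan4 OE 2 had 13.5 from 66 reads (10.4 to 17.1). The means were 16.6 ± 8.44 and 21.3 ± 11.1 RPM (SD, n = 2), a ratio of 1.28 (exact permutation p = 0.667). For all rows the same ratio was 1.05, and for microRNA rows 1.13. Single libraries moved the class ratios by more than 1.5 times: the box C/D ratio was 2.41 without control 1 and 1.01 without Zscan4 OE 1, and the H/ACA ratio was 1.99 and 0.809. Without control 2 the H/ACA ratio was 0.942, so its direction rested on single libraries.

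Libraries of the same group differed more in these rows than in the table at large. Control 1 had 2.10 times the summed small nucleolar RNA RPM of control 2, and Zscan4 OE 1 had 2.11 times that of Zscan4 OE 2. Over all rows the same ratios were 1.32 and 1.29. Box C/D rows gave 2.09 and 2.08, and H/ACA rows 2.12 and 2.16. The gap was not confined to these rows. The 18 listed non-coding or Snrpn region host genes summed to 99.9 RPM in control 1, 55.4 in control 2, 144 in Zscan4 OE 1 and 79.4 in Zscan4 OE 2. Rows for U3 and Cajal body RNAs summed to 182, 56.1, 197 and 112 RPM in the same order. The U3 genes in this sum stand in paired rows with equal or nearly equal reads, so the same reads may be counted in both rows.

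**Figure D1:**
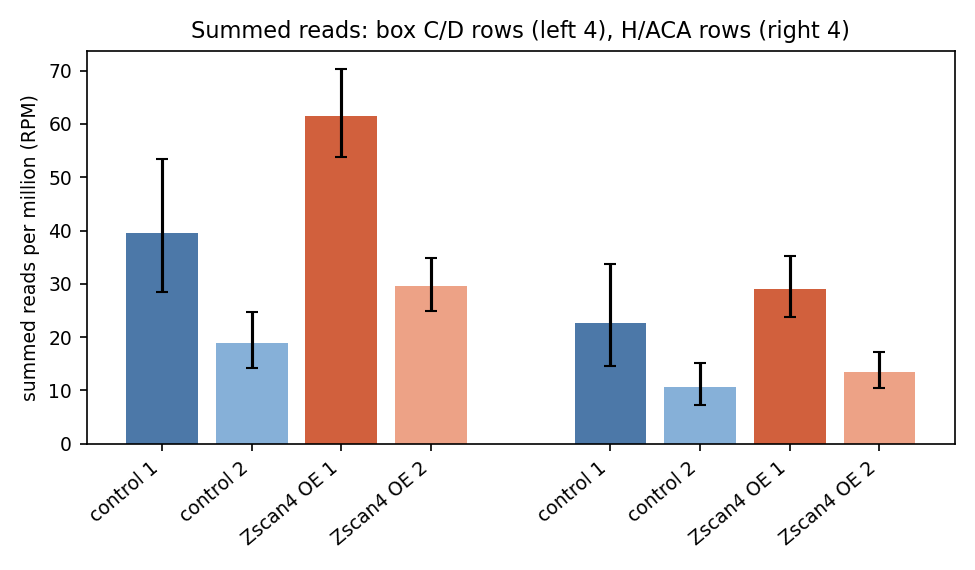
Summed reads of the 73 box C/D rows (left) and the 40 H/ACA rows (right) in each library, in RPM of the library total, with 95% exact Poisson intervals as error bars. In both classes the library order is Zscan4 OE 1, control 1, Zscan4 OE 2, control 2.

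The ratio of the classes within a library does not depend on the library total. Box C/D over H/ACA reads per kb was 1.88 in control 1 (95% Clopper-Pearson interval 1.11 to 3.24), 1.90 in control 2 (1.2 to 3.06), 2.27 in Zscan4 OE 1 (1.79 to 2.89) and 2.36 in Zscan4 OE 2 (1.75 to 3.2). Both Zscan4 OE libraries lay above both controls, with means of 2.31 ± 0.0627 and 1.89 ± 0.0183 (SD, n = 2). The exact permutation p was 0.33, the smallest this design can give, and the counting intervals of the 4 libraries overlapped. Without Snord118 control 1 had a ratio of 1.19, control 2 of 1.42, Zscan4 OE 1 of 1.87 and Zscan4 OE 2 of 1.84. Per row instead of per kb the ratio was 0.959, 0.972, 1.16 and 1.2 in the 4 libraries, so the controls stood on the other side of 1. The 10 rows at 0 had no recovered length. Adding the RefSeq lengths of 9 of them took the pooled per-kb ratio from 2.20 to 1.97.

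**Figure D2:**
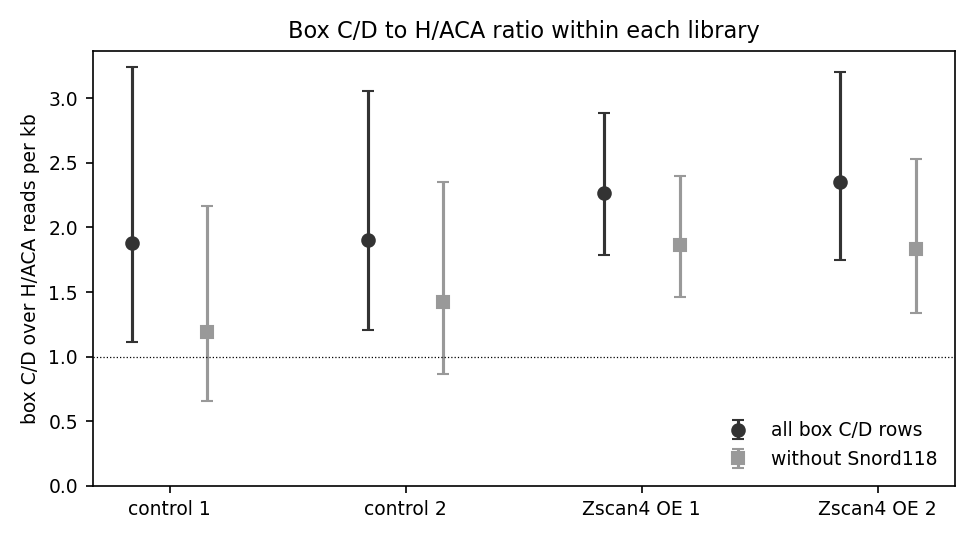
Box C/D over H/ACA reads per kb within each library, with all box C/D rows (circles) and without Snord118 (squares); bars are 95% Clopper-Pearson intervals and the dotted line marks equal density. With all rows the Zscan4 OE points lie at 2.27 and 2.36 and the control points at 1.88 and 1.90, and without Snord118 at 1.87 and 1.84 against 1.19 and 1.42, with overlapping intervals.

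No small nucleolar RNA gene passed the test across genes. Of 42989 rows tested with limma, 0 passed an adjusted p of 0.05 (0%), and 0 of the 103 small nucleolar RNA rows with a read did. At an unadjusted p under 0.05, 18 of the 103 were higher, against 5.09% of all tested rows, and 1 was lower, against 1.33%. Of these 18, all but Snora61 had 0 reads in both controls, so their p rests on a control group at the pseudocount. Without Zscan4 OE 1, 25 of the 103 passed with higher values (24.3%, against 10.5% of all tested rows), and without Zscan4 OE 2, 6 did (5.83%, against 9.05%). Each of these had 0 reads in both controls, and the refits leave 1 Zscan4 OE library, which is assumed to vary like the controls. The groups did not overlap in 22 rows with higher values in Zscan4 OE (21.4%, against 19.6% of all tested rows) and in 5 with lower values (4.85%, against 10.1%). Of the 22, 18 were box C/D and 4 H/ACA, and 17 had no read in either control. Log2 differences were positive in 49 and negative in 14 of 63 box C/D rows, with a median of 2.50, and positive in 28 and negative in 12 of 40 H/ACA rows, with a median of 1.59. The median of all tested rows was 0.28. Among all rows with 1 to 4 reads 6784 differences were positive and 3955 negative, and with 5 to 9 reads 4290 and 2200. Differences on the scale log2(RPKM + 0.1) are wide where one group is at 0. Among small nucleolar RNA rows this was so for both controls in 34 rows and for both Zscan4 OE libraries in 6. Relative to all rows the median of both classes together was 2.05, and it was 0.81 with a pseudocount of 1 and 3.63 with 0.01. With voom on rows of at least 20 reads 3 small nucleolar RNA rows were tested, with 0 calls and 0 at an unadjusted p under 0.05.

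The differences varied with the number of reads. The ranges below match rows on reads and not on length. In a short row 1 read is a larger RPKM, which widens a difference against 0 on this scale. The part of length and of the pseudocount in the gaps to all rows was not tested. Among rows with 1 to 4 reads the median log2 difference was 2.20 for 50 small nucleolar RNA rows and 1.25 for all rows. Among rows with 5 to 9 reads it was 2.38 for 35 rows, against 0.77, and among rows with 10 to 19 reads 2.96 for 15 rows, against 0.30. The 3 rows with at least 20 reads had a median of 0.08, against 0.14. The Zscan4 OE to control ratio of summed RPM in these 4 ranges was 1.04, 1.79, 1.77 and 1.16 for the small nucleolar RNA rows and between 1.01 and 1.08 for all rows. These are ratios of group means. In small nucleolar RNA rows with 5 to 9 and with 10 to 19 reads, control 1 lay above Zscan4 OE 2 in summed RPM, so the groups overlapped. Over all small nucleolar RNA rows the sums were 62.2 RPM in control 1 and 43.1 in Zscan4 OE 2.

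**Figure D3:**
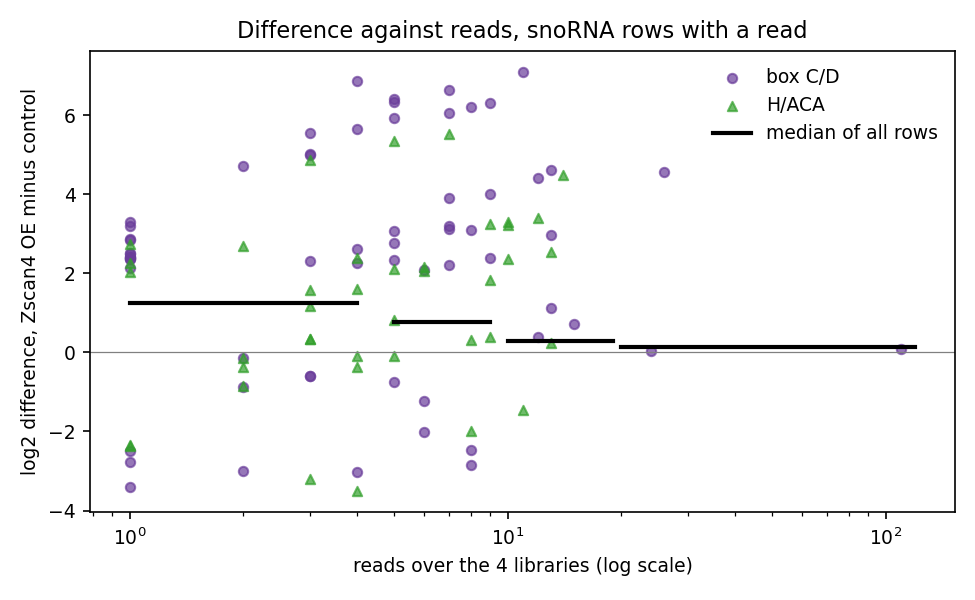
Log2 difference between Zscan4 OE and control, on the scale log2(RPKM + 0.1), against the reads of a row over the 4 libraries on a log axis, for 63 box C/D and 40 H/ACA rows; black bars are the medians of all tested rows in 4 ranges of reads. Differences reach 7.10 at 11 reads, and Snord118 at 110 reads lies at 0.08.

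Snord118, whose RNA is needed for the large ribosomal subunit, had the most reads of any member. It lies on chromosome 11 (69073426 to 69073562, GRCm38) with no RefSeq gene around it, 2617 bp from the nearest listed start, that of Tmem107. Its reads were 16 in control 1, 15 in control 2, 44 in Zscan4 OE 1 and 35 in Zscan4 OE 2, or 112, 38.3, 90.4 and 52.9 RPKM. The groups overlapped, since control 1 was the highest and control 2 the lowest. The means were 75 ± 51.9 and 71.7 ± 26.5 RPKM (SD, n = 2).

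Snord13, which directs acetylation of the small-subunit RNA, also stood clear of most members. It lies on chromosome 8 (31149861 to 31149958) outside other RefSeq genes. Its RPKM was 54.4, 26.5, 48.0 and 31.4 in the 4 libraries, from at least 3, 4, 9 and 8 reads. Here too the libraries numbered 1 were the highest. Its recovered length of 52 bp is well short of the RefSeq length of 98 bp, so the reads may be too few by a factor that leaves the RPKM as it is. The log2 differences of Snord118 and Snord13 were 0.08 (SE 2.60) and 0.03 (SE 1.57), each far smaller than its limma error. This error is moderated towards rows of similar mean level, so it is not the spread of the row alone.

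The Snord14 genes, copies of U14, were read mainly in Zscan4 OE 1. Snord14c, Snord14d and Snord14e lie in Hspa8, the gene of a constitutive heat shock chaperone, on chromosome 9 between 40803583 and 40804838. Snord14e had 0, 3, 18 and 5 reads (0, 11.5, 55.5 and 11.3 RPKM), so control 2 and Zscan4 OE 2 were alike. Snord14d had 0, 0, 8 and 3 reads and Snord14c 0, 1, 8 and 3, with no overlap between groups. In Snord14a, which lies in Rps13, the reads were 0, 0, 8 and 1. Over the 3 rows in Hspa8 the sums were 0, 1.38, 9.43 and 2.25 RPM, while the Hspa8 row itself had 8.10, 2.00, 9.29 and 3.23 RPKM. The sums are not divided by length, so the 2 scales differ. Per kb and pooled over the libraries, the 3 rows had 15.0 RPKM and the Hspa8 row 5.11. At the depth of control 1, rows this short with no read cannot be told from the level of the host. The copies are alike in sequence, and the sources used here do not tell how reads matching several of them were counted.

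Snhg12, a non-coding host on chromosome 4, held Snora61, Snora44, Snora16a and Snord99. Snora61 (132310307 to 132310368) had 0, 1, 5 and 8 reads, or 0, 2.65, 10.7 and 12.6 RPKM. It was higher in both Zscan4 OE libraries, with means of 1.32 ± 1.87 and 11.6 ± 1.34 RPKM (SD, n = 2) and a log2 difference of 4.48 (SE 1.65, limma adjusted p = 0.765). Snora44, which precedes it in the host, had 3, 0, 7 and 3 reads, or 21.9, 0, 15.0 and 4.75 RPKM, with the groups overlapping. Snord99 had 1, 1, 7 and 4 reads (12.7, 4.65, 26.2 and 11 RPKM), again with control 1 above Zscan4 OE 2. The order of the libraries, at 0 to 8 reads each, differed between these neighbours in the same host. Whether it differed by more than counting error was not tested. Over the 5 rows in Snhg12, of which Snora16a gives 2, the sums were 3.77, 1.38, 6.38 and 3.06 RPM, and the Snhg12 row had 2.90, 1.69, 5.29 and 2.76 RPKM. Here too the sums are not divided by length. Per kb and pooled over the libraries, the 5 rows had 6.09 RPKM and the Snhg12 row 3.25.

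Snhg7, another non-coding host, on chromosome 2, held Snora17 (1, 0, 8 and 3 reads) and Snora43. Snora43 is listed in 2 rows, of 127 and 139 bp, both with 1, 0, 5 and 4 reads. The 2 rows of Snora16a, with 0, 1, 2 and 0 reads each, and those of Snord80, with 1 read each in Zscan4 OE 2, were also equal, so the same reads may stand in both rows. In Rpl13a, a ribosomal protein gene, the 4 rows Snord32a, Snord33, Snord34 and Snord35a summed to 3.77, 1.38, 2.22 and 0.612 RPM, lowest in Zscan4 OE 2. Across the 76 host genes with a single row in the table, the pooled RPKM of the small nucleolar RNA rows was above that of the host in 48.

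Most of the other leading rows overlapped between groups. Snord17, in Snx5, had 1, 2, 8 and 4 reads (3.96, 2.89, 9.32 and 3.43 RPKM). Snord87, in Snhg6, had 0, 1, 8 and 4 reads (0, 3.96, 25.5 and 9.38 RPKM), without overlap (log2 difference 4.61, SE 1.90, limma adjusted p = 0.855). Snord104, 76 bp from the start of Gm36220, had 3, 0, 3 and 7 reads, and the highest RPKM was that of control 1 (40.4, 0, 11.9 and 20.4). Snord45b, in Rabggtb, had 1, 2, 5 and 4 reads and RPKM between 9.70 and 19.5. Among H/ACA rows Snora74a had 1, 2, 8 and 2 reads, Snora41 0, 3, 6 and 1, Snora31 0, 1, 1 and 7, and Snora73b, a copy of U17, 0, 4, 2 and 3. A single library held most of the reads of Snora74a, Snora41 and Snora31.

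**Figure D4:**
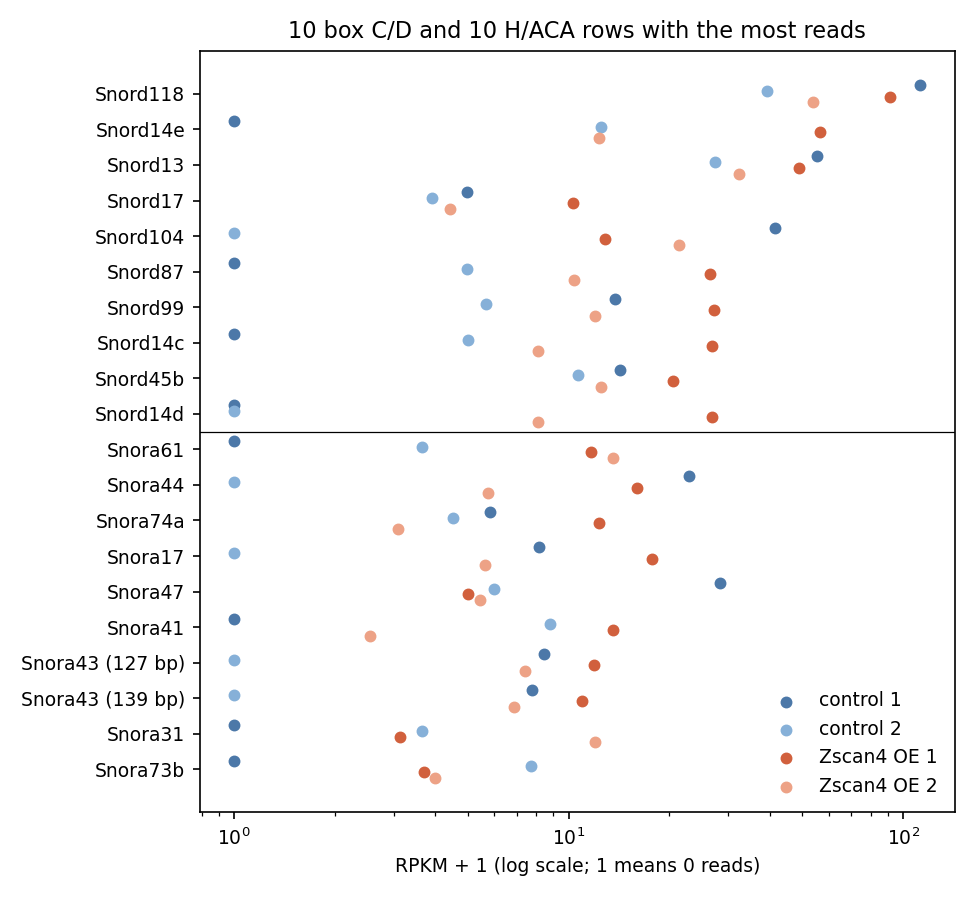
RPKM + 1 on a log axis in each of the 4 libraries for the 10 box C/D rows (above the line) and the 10 H/ACA rows (below it) with the most reads; points at 1 had 0 reads. Snord118 and Snord13 lie at 26.5 RPKM or more in every library, and 13 of the other 18 rows have at least 1 library at 0.

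The rows with the smallest p rested on few reads. The 5 with higher values had no read in either control: Snord47 (2 and 5 reads in Zscan4 OE 1 and 2), Snord107 (3 and 2), Snord100 (3 and 2), Snord22 (5 and 3) and Snord14d (8 and 3). Their log2 differences lay between 6.21 and 7.10, and the limma adjusted p was 0.156 for each. A fitted difference against a group at 0 depends on the pseudocount and is not a fold change. Snord47 lies in Gas5 and Snord22 in Snhg1, while Snord107 belongs to the imprinted Snrpn region. Among lower rows Snord34, in Rpl13a, was the clearest, with 13.5, 14.8, 3.96 and 2.92 RPKM and a log2 difference of -2.02 (SE 0.530, limma adjusted p = 0.492). These came from 1, 3, 1 and 1 reads. The other 4 were Snora23, Snord85, Snora81 and Snora47, with adjusted p = 0.869 each. Snora47 had 27.3 RPKM in control 1, from 4 reads, 4.99 in control 2, and 4.02 and 4.44 in the Zscan4 OE libraries.

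Levels by distance from the nearest start depended on Snord118 and on the library. Rows at most 500 bp away had 5.85 RPKM pooled over the libraries (95% exact Poisson interval 4.40 to 7.64, 54 reads in 7 rows). Rows between 500 and 2000 bp away had 4.17 (3.54 to 4.89, 154 reads in 29 rows), and rows further away 5.35 (4.78 to 5.96, 327 reads in 52 rows). Without Snord118 the last value was 3.65 (3.18 to 4.17, 217 reads), so the pooled level then fell with each step of distance. The libraries did not share that order: from near to far, without Snord118, Zscan4 OE 1 had 8.62, 7.69 and 5.29 RPKM, and control 2 had 1.40, 2.10 and 2.53. The distance to the host's start was not analysed here for 18 rows, the Snord14 rows of Hspa8 among them, and these had 6.15 RPKM.

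The genes for the proteins that bind, mature or host small nucleolar RNAs gave no call either. Of 39 listed genes 38 had a row and were tested, and 0 passed in either direction. The log2 difference was positive in 32 and negative in 6, with a median of 0.46 against 0.28 for all rows. Most differences were positive in the whole table too: among all rows with at least 20 reads, 11464 were positive and 7547 negative. Fbl, the methyltransferase of box C/D particles, had 1.12, 0.409, 0.922 and 0.824 RPKM. Nop58, a core scaffold, had 1.23, 0.928, 2.22 and 1.99 RPKM and was higher in both Zscan4 OE libraries (log2 difference 0.91, SE 0.437, limma adjusted p = 0.869). Nop56, its partner and itself a host gene, had 2.07, 1.26, 5.62 and 1.89 RPKM, high in Zscan4 OE 1 alone.

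Among H/ACA proteins Dkc1, the pseudouridine synthase, had 2.06, 1.17, 2.36 and 1.29 RPKM, with the groups overlapping. Gar1, a core protein, had 0.550, 0.603, 1.94 and 2.38 RPKM from 1, 3, 12 and 20 reads, without overlap (log2 difference 1.74, SE 0.452, adjusted p = 0.486). Of the 12 assembly genes Ruvbl2 had the most reads, with 3.25, 2.02, 4.59 and 2.25 RPKM, and its groups overlapped. Naf1, which loads the H/ACA proteins, had 1.52, 0.890, 2.60 and 2.11 RPKM, and Coil, which builds Cajal bodies, had 0.268, 0.881, 2.05 and 1.33. Naf1 and Coil belong to the 3 assembly genes that were higher without overlap, as were 19.6% of all tested rows. In the other assembly genes the groups overlapped. Of the 12 assembly genes 10 had a positive difference. Of the 18 host genes listed 15 did, among them Gas5, with 5.01, 2.66, 7.67 and 3.58 RPKM. In the Snrpn region Snrpn had 0.873, 0.638, 0.899 and 0.851 RPKM and Snhg14 0.253, 0.158, 0.276 and 0.180, so the groups overlapped in both.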

How the data were processed

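ATAC-seq libraries of 2 control and 2 Zscan4 OE samples were analysed. The authors deposited RPKM values per gene. Trimmomatic, Bowtie2 and featureCounts with build mm10 were used, per the submitters' processing notes, with versions and overlap rule not given in the sources used here. Across rows and columns, the deposited RPKM values take turns between 8 library totals. Totals were found from single-read values of short RNA genes, and reads, lengths and rotations were recovered as the smallest whole numbers. Each of the 38361 rows holding at least 2 nonzero values matched exactly 1 rotation, and so did each of the 103 small nucleolar RNA rows with a read. Which total belongs to which library is not stated. The placement in rotation order with the most even share of reads on rows was kept (highest over lowest 1.36, next 4.17). RPKM in the text is rescaled to each library's own total. Recovered lengths were within 25% of RefSeq in 73 of 97 rows, more than 25% shorter in 6 and more than 25% longer in 18.

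A row needed a mean RPKM of 0.1 or more and was tested with limma 3.58.1 (R 4.3.3, eBayes trend) on log2(RPKM + 0.1), two-sided, with p-values adjusted by Benjamini-Hochberg across the 42989 rows. Named rows are the 10 Snord and 10 Snora rows with the most reads and the 5 with the smallest p in each direction. Other rows (Snord14a, Snord33 and others of 1 host) were named after their values were seen. For the genes that bind, mature or host these RNAs, those with the most reads in each role were to be named. The others named were not fixed beforehand. The members, lists and tests were chosen with earlier results of these data known. The scripts were tested on simulated data. Alternatives covered pseudocount, filter, scaling, voom, the replicate block and leaving out each library.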

Additional observations from a re-analysis of the deposited data

How the results depend on the processing

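Of 42989 rows, 0 were called in either direction with a pseudocount of 1 or 0.01, without the filter, centred on the median, with quantile normalization, on the values as deposited, or with the replicate number as a block. Among rows with at least 20 reads 4 were higher and 1 lower, and with voom on these rows 0 and 1, none a small nucleolar RNA row. Before adjustment, 2189 rows had a p under 0.05 with higher values and 573 with lower ones. For small nucleolar RNA rows these were 18 and 1, against 30 and 0 on the values as deposited and 22 and 3 with the replicate block. Leaving out a library gave 0 to 4530 higher and 0 to 6 lower rows, and 0 to 25 higher small nucleolar RNA rows and 0 lower. The 25 calls came without Zscan4 OE 1 and 6 without Zscan4 OE 2 (3889 higher and 2 lower rows in all), and every one of these small nucleolar RNA rows had 0 reads in both controls. The class ratios without single libraries ranged from 1.01 to 2.41 for box C/D and from 0.809 to 1.99 for H/ACA.

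The Zscan4 OE to control quotient of the box C/D to H/ACA ratio was 1.22. It was 1.19 with RPKM summed over rows, 1.52 without the row with the most reads in each class, 1.29 without symbols carried by more than 1 row, and 1.2 to 1.25 without single libraries. Taking the replicate numbers as a replicate block, a comparison added after seeing the data, gave ratios between groups of 1.56 for both numbers in box C/D rows and of 1.29 and 1.26 in H/ACA rows. Their geometric means were 1.56 and 1.27. The labels do not say that a number marks a shared batch, and deviations of same-numbered libraries correlated at 0.042 over tested rows and 0.129 over rows with at least 20 reads. Multiplying reads and lengths to come nearest to RefSeq lengths, also added later, changed 5 rows and gave 1.55 and 1.28. Of 314 refits of 28 named rows, 15 had the other sign and 3 passed the threshold. With 3 or fewer reads in most rows and libraries, counting error limits every single-row value.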

Other observations

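Other small RNA genes of the nucleolus and of Cajal bodies are no members by symbol. Rnu3a, a gene for the U3 RNA that starts the cutting of the ribosomal RNA precursor, is listed in 2 rows. The row of 214 bp had 176, 54.7, 115 and 83.0 RPKM in control 1, control 2, Zscan4 OE 1 and Zscan4 OE 2, from 40, 34, 89 and 87 reads. The groups overlapped, and the value of control 1 was the highest, as for Snord118. Rnu3b1 (216 bp) had 100, 41.5, 136 and 87.9 RPKM, also overlapping, with control 2 the lowest in both genes. Rnu3b4 (215 bp) had 13.1, 14.4, 43.9 and 16.1 RPKM, with control 1 the lowest and no overlap between groups (log2 difference 0.95, SE 1.01, limma adjusted p = 0.869). These genes are near-identical copies, and their paired rows hold nearly equal reads. The Cajal body genes were sparse: Scarna2, which had the most reads among them, had 1, 1, 5 and 4. Scarna17 (0, 0, 2 and 1 reads) and Scarna9 (0, 0, 1 and 2 reads) had no read in the controls (limma adjusted p = 0.156 each). All genes in this paragraph were chosen after their values were seen.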
